A study of Mus musculus with 15 samples.

Results

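The genes described here are 34 mouse genes of the unfolded protein response and the integrated stress response, chosen by name from what each is known to do, with earlier results of these data known. On the arrays of this series 18193 genes had a probe set naming them alone. Of these, 13168 had a probe set bright enough to be tested, and all 34 stress response genes were among them, each represented by its brightest probe set. The series asks what erythropoietin, the hormone of red blood cell formation, does to forebrain transcripts of mice exposed to hypoxic ischemia, in which both oxygen and blood flow fall short. Total RNA was hybridised to 15 Affymetrix Mouse Genome 430 2.0 arrays, 5 per group. The EPO-HI group (arrays EPO-HI 11 to 15) received erythropoietin at 5 U per g intraperitoneally and the VEH-HI group (VEH-HI 6 to 10) vehicle, in both cases 1 h before hypoxic ischemia. The VEH-Sham group (VEH-Sham 1 to 5) received vehicle 1 h before sham surgery. The sources used here give no strain, age, sex or time from injury to sampling, and no group combined erythropoietin with sham surgery. Nothing in the labels says that the samples of a group were separate animals, so the spread behind each p-value is that among these samples and could be technical.

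Misfolded proteins in the endoplasmic reticulum (ER) are sensed by the membrane proteins PERK (Eif2ak3), IRE1 (Ern1) and ATF6 (Atf6). PERK and related kinases phosphorylate the translation factor eIF2, which slows most protein synthesis while the mRNA of the transcription factor ATF4 is translated more, a step that need not alter Atf4 mRNA. ATF4 then induces genes of amino acid synthesis, redox balance and feedback, while IRE1, through spliced Xbp1 mRNA, and ATF6 induce chaperones and the machinery of ER-associated degradation. Ischemia of the brain is a textbook setting of eIF2 phosphorylation and of arrested protein synthesis.

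Values are log2(intensity + 16), where the intensity is linear and was scaled by the authors to the same trimmed mean on every array. A difference of 1 is a doubling of intensity + 16, and changes of dim genes are understated. The 10 hypoxic ischemia arrays and VEH-Sham 5 had array medians of 39.3 to 44.5, while VEH-Sham 1 to 4 had medians of 55.4 to 58.0, a gap of 0.318 on the log2 scale. The Gapdh controls gave 3' over 5' signal ratios of 0.716 to 0.756 in the 10 hypoxic ischemia arrays, 0.731 in VEH-Sham 5 and 0.634 to 0.719 in VEH-Sham 1 to 4. The same ratio of the Actb controls was 1.241 to 1.504, 1.365 and 1.283 to 1.399 in the same sets of arrays. Nothing in the sources used here says why 4 arrays stand apart. Comparisons with VEH-Sham are therefore set beside the difference from VEH-Sham 5 alone, which shares the array medians of the injured groups and is a single sample. All 7 forebrain markers with a probe set passed the brightness filter.

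Known promoter elements tie ER chaperone genes to ATF6 and amino acid genes to ATF4, so the 250 bases before each RefSeq transcript start (GRCm38.p6) were searched on both strands for the ER stress element bound by ATF6 with NF-Y, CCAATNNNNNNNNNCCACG, and for the C/EBP-ATF element bound by ATF4, TGATGNAA. The element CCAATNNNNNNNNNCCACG stood in 37 of 32851 promoters (0.113%) and the element TGATGNAA in 1134 (3.45%). Promoters were found for 30 of the 34 genes and not for Atf6, Cth, Hyou1 and Manf. The ER stress element stood in 7 of the 12 matched ER chaperone genes, in the ER-associated degradation gene Syvn1 and in none of the 8 matched ATF4 targets. The C/EBP-ATF element stood in the ATF4 targets Asns and Chac1 and in Herpud1. The matches below are shown with their flanks for both chaperones at the centre of the ER response and for both ATF4 targets. Each reads 5′ to 3′ on the gene's strand, with the matched bases in capitals.
Hspa5 (chr2:34772005-34772063, plus strand): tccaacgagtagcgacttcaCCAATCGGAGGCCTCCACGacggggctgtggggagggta
Hsp90b1, outer match (chr10:86705618-86705676, minus strand): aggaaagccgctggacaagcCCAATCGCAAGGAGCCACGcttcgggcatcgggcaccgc
Hsp90b1, inner match on the opposite strand (chr10:86705513-86705571, minus strand): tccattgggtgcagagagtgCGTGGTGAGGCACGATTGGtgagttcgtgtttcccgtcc
Asns (chr6:7693210-7693252, minus strand): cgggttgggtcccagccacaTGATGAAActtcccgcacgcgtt
Chac1, match on the opposite strand (chr2:119351029-119351076, plus strand): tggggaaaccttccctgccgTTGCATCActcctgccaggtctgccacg
The Hspa5 match began 65 bases before the start, the Asns match 23 bases and the Chac1 match 193 bases before it. Calr, Canx, Pdia6, Dnajc3, Creld2 and Syvn1 held 1 ER stress element each. A match is a run of letters and not a measured binding site, and no match says only that these letters are not in this window.

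**Figure D1:**
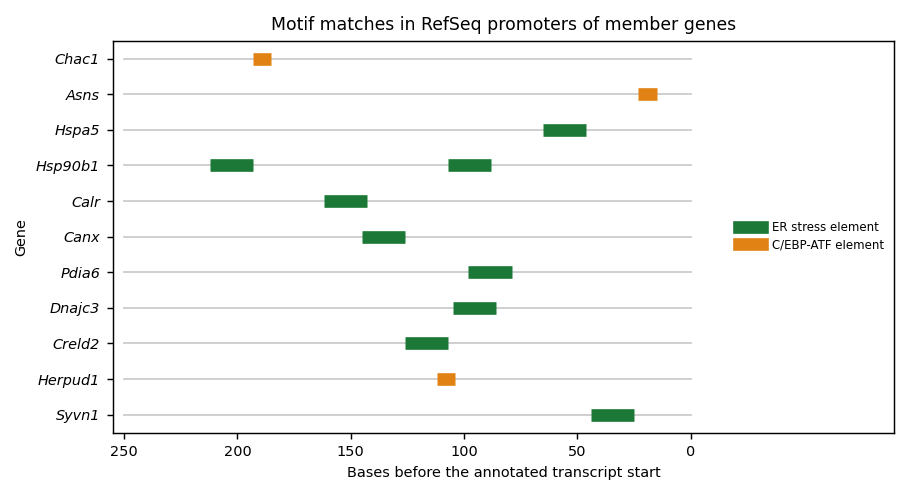
Positions of the matches in the 11 promoters that held one, with distance in bases before the annotated transcript start on the x axis (0 is the start) and 1 gene per row. Green bars are ER stress elements and orange bars C/EBP-ATF elements; Hsp90b1 is the row with 2 green bars.

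VEH-HI was set against VEH-Sham to ask what injury without erythropoietin does to these genes. Of the 34 genes, 7 were higher in VEH-HI (Atf4, Cebpb, Asns, Psat1, Phgdh, Dnajb11 and Manf) and 1 was lower (Hsp90b1) at a limma adjusted p under 0.05. The 7 are 20.6% of the 34. Among all tested genes 11.9% were higher and 11.5% lower. The median change was 0.10 over the 34 genes, against -0.02 over all tested genes, and 0.01 and 0.003 when VEH-HI was set against VEH-Sham 5 alone. With the array set as a block, 0 of the 34 genes passed, as did 0.00759% of all tested genes (1 gene). That block parts the arrays by their array medians and leaves VEH-Sham 5 as the lone sham array in the comparison. With a single sham array, these block counts cannot decide whether the calls hold. In such bulk RNA, fewer cells of a type and less RNA per cell cannot be told apart. Manf was the single stress response gene with every VEH-HI array above every VEH-Sham array, as were 4.59% of all tested genes, and none had every VEH-HI array below, as had 4.09% of them.

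**Figure D2:**
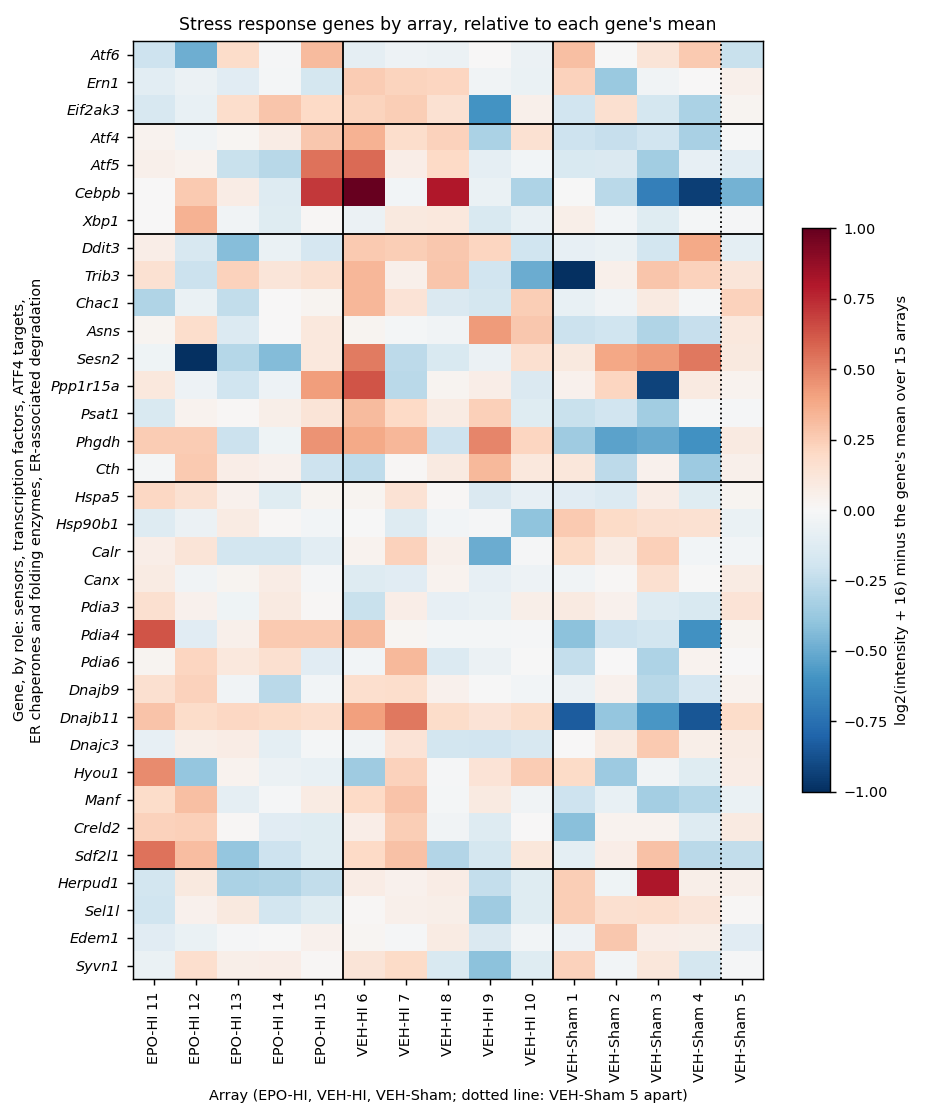
Heat map of the 34 genes (rows, grouped by role) in the 15 arrays (columns), as log2(intensity + 16) minus the gene's mean over all arrays, with red above and blue below that mean and the scale cut at 1. Phgdh and Dnajb11 are blue in VEH-Sham 1 to 4 and pale red in VEH-Sham 5, while Cebpb is darkest red in VEH-HI 6, VEH-HI 8 and EPO-HI 15.

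The sensors did not pass in either direction. Ern1, the IRE1 kinase and ribonuclease, differed by 0.14 (SE 0.13) and Eif2ak3, the PERK kinase, by 0.11 (SE 0.15) between VEH-HI and VEH-Sham. Atf6, the membrane-bound transcription factor, differed by -0.15 (SE 0.15), and by 0.17 from VEH-Sham 5 alone. VEH-HI 9 held the lowest Eif2ak3 value of all arrays, 6.81, against 7.10 to 7.69 in the other 14. A dimmer probe set of Atf6 (-0.67, limma adjusted p = 0.015) and one of Ern1 (-0.68, limma adjusted p = 0.0288) were lower in VEH-HI than in VEH-Sham, but from VEH-Sham 5 alone they differed by -0.48 and 0.07. From VEH-Sham 5 alone the brightest probe sets of Ern1 and Eif2ak3 differed by 0.07 and -0.02.

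Among the transcription factors, Cebpb and Atf4 were higher in VEH-HI, whereas Xbp1 and Atf5 did not pass. Cebpb encodes a C/EBP factor that pairs with ATF4 and also acts in myeloid cells. It measured 7.00, 7.25, 7.06, 6.86 and 7.70 in EPO-HI 11 to 15, 8.06, 6.96, 7.79, 6.92 and 6.68 in VEH-HI 6 to 10, and 6.99, 6.72, 6.31, 6.05 and 6.51 in VEH-Sham 1 to 5. VEH-HI 6, VEH-HI 8 and EPO-HI 15 stood above the rest, and the VEH-HI and VEH-Sham ranges overlapped through VEH-Sham 1 and VEH-Sham 2. VEH-HI exceeded VEH-Sham by 0.77 (SE 0.23, limma adjusted p = 0.0245), or 1.70-fold. Against VEH-Sham 5 alone the difference was 0.77 as well, and all 5 EPO-HI and all 5 VEH-HI arrays lay above VEH-Sham 5. Of the 8 genes called, Cebpb was the one whose difference did not shrink against that array. The call was lost without VEH-HI 6, VEH-HI 8, VEH-Sham 3 or VEH-Sham 4, with differences of 0.57 to 0.92 over all 15 arrays left out in turn and adjusted p up to 0.0738. A second, dimmer Cebpb probe set differed by 0.80 (limma adjusted p = 0.061), and by 0.41 from VEH-Sham 5 alone.

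The 3 arrays with the most Cebpb also had the highest summed intensity of 6 neutrophil markers, 683 in VEH-HI 6, 2442 in VEH-HI 8 and 969 in EPO-HI 15. That sum ranged from 202 to 969 in EPO-HI, from 191 to 2442 in VEH-HI and from 165 to 256 in VEH-Sham, and 2 of the 6 markers were higher in VEH-HI against VEH-Sham. All 6 markers passed the brightness filter, which is set on the mean over all 15 arrays and does not show the level in any single array. Of 12 tested markers of microglia and macrophages, 9 were higher and 1 lower in VEH-HI, with Itgam and Trem2 below the brightness filter, and their summed intensity was 3505 to 4721 in EPO-HI, 4207 to 6068 in VEH-HI and 2930 to 3610 in VEH-Sham. Among all tested genes 11.9% were higher and 11.5% lower in VEH-HI. In VEH-Sham 5 the sums were 165 for neutrophil markers and 3414 for those of microglia and macrophages. The part of either cell type in the Cebpb difference was not tested.

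Atf4 measured 9.71, 9.64, 9.69, 9.74 and 9.94 in EPO-HI 11 to 15, 10.02, 9.85, 9.90, 9.35 and 9.82 in VEH-HI 6 to 10, and 9.47, 9.44, 9.48, 9.35 and 9.67 in VEH-Sham 1 to 5. In VEH-HI, 4 arrays lay above all VEH-Sham arrays, and VEH-HI 9 lay among the lowest of all. VEH-HI exceeded VEH-Sham by 0.31 (SE 0.11, limma adjusted p = 0.0429), or 1.24-fold, and VEH-Sham 5 alone by 0.12. The call was lost without any single one of VEH-HI 6, 7, 8 and 10, VEH-Sham 1, 2, 3 and 4 or EPO-HI 14, with adjusted p up to 0.111. Another bright Atf4 probe set differed by -0.47 from VEH-Sham (limma adjusted p = 0.0574) but by 0.13 from VEH-Sham 5 alone, close to the 0.12 of the brightest one. The mean of all 3 Atf4 probe sets differed by -0.06 from VEH-Sham. Atf5, a relative of Atf4 that is also translated under eIF2 phosphorylation, differed by 0.31 (SE 0.15, limma adjusted p = 0.127), and by 0.25 from VEH-Sham 5 alone.

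Xbp1 measured 10.64, 10.98, 10.60, 10.52 and 10.65 in EPO-HI 11 to 15, 10.58, 10.73, 10.74, 10.48 and 10.56 in VEH-HI 6 to 10, and 10.70, 10.61, 10.52, 10.61 and 10.62 in VEH-Sham 1 to 5. EPO-HI 12 stood above the other 14 arrays, and the groups overlapped throughout. The difference between VEH-HI and VEH-Sham was 0.01 (SE 0.09, 95% interval -0.17 to 0.19), and -0.002 from VEH-Sham 5 alone. The other Xbp1 probe sets differed by -0.05, 0.05 and 0.16, none of them called, and by 0.20, 0.13 and 0.21 from VEH-Sham 5 alone. Splicing of Xbp1 mRNA, by which IRE1 activates it, was not analysed here.

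Of the 9 ATF4 targets, 3 were higher in VEH-HI than in VEH-Sham, none was lower and 6 did not pass, with a median difference of 0.17 (8 of 9 above 0). Against VEH-Sham 5 alone the median was 0.03, with 6 of 9 above 0. Of all 13168 tested genes, 6232 lay above 0 against VEH-Sham and 6641 against VEH-Sham 5 alone. Against VEH-Sham 11.9% of them were higher and 11.5% lower. The 3 genes that passed all encode enzymes of amino acid synthesis. Phgdh, the first enzyme of serine synthesis, measured 9.82, 9.82, 9.35, 9.52 and 10.01 in EPO-HI 11 to 15, 9.94, 9.89, 9.35, 10.04 and 9.78 in VEH-HI 6 to 10, and 9.20, 9.02, 9.05, 8.96 and 9.65 in VEH-Sham 1 to 5. VEH-Sham 1 to 4 lay below every other array, whereas VEH-Sham 5 lay inside the ranges of both injured groups. Phgdh in VEH-HI exceeded that in VEH-Sham by 0.62 (SE 0.15, limma adjusted p = 0.00627), or 1.54-fold. The difference from VEH-Sham 5 alone was 0.15. The call stood whichever of the 15 arrays was left out, and the other 3 Phgdh probe sets differed in the same direction (0.22 to 0.46, 1 of them called).

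Psat1, which encodes the next enzyme of serine synthesis, measured 9.60, 9.79, 9.76, 9.81 and 9.88 in EPO-HI 11 to 15, 10.07, 9.95, 9.84, 9.99 and 9.63 in VEH-HI 6 to 10, and 9.53, 9.56, 9.41, 9.74 and 9.74 in VEH-Sham 1 to 5. Only VEH-HI 10 among the VEH-HI arrays lay inside the VEH-Sham range, and VEH-Sham 4 stood level with VEH-Sham 5. The difference was 0.30 (SE 0.10, limma adjusted p = 0.0292), or 1.23-fold, and 0.16 from VEH-Sham 5 alone. The call was lost without VEH-HI 6, 7 or 9 or VEH-Sham 1, 2 or 3, with adjusted p up to 0.0849. Asns, asparagine synthetase, whose promoter match is printed above, measured 10.12, 10.27, 9.95, 10.09 and 10.19 in EPO-HI 11 to 15, 10.12, 10.07, 10.05, 10.51 and 10.36 in VEH-HI 6 to 10, and 9.87, 9.88, 9.79, 9.86 and 10.19 in VEH-Sham 1 to 5. VEH-HI 9 and VEH-HI 10 were the highest arrays, and VEH-Sham 5 lay above VEH-HI 6, 7 and 8. The difference was 0.30 (SE 0.10, limma adjusted p = 0.0384), or 1.23-fold, but 0.03 from VEH-Sham 5 alone, and a second Asns probe set gave 0.30 and 0.13. The call was lost without VEH-HI 9 or 10 or VEH-Sham 1, 2, 3 or 4, with adjusted p up to 0.102.

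VEH-HI 9 carried the highest Asns and Phgdh values of all arrays together with the lowest Atf4 value of VEH-HI. Phgdh and Psat1 are abundant in astrocytes. Of 6 astrocyte markers 3 were higher in VEH-HI than in VEH-Sham, and their summed intensity was 10523 to 11307 in EPO-HI, 10320 to 12427 in VEH-HI and 8113 to 10457 in VEH-Sham, where VEH-Sham 5 was the highest. For 9 markers of reactive astrocytes, 7 of them higher in VEH-HI, the sum was 4325 to 8168 in EPO-HI, 4450 to 10101 in VEH-HI and 2474 to 2693 in VEH-Sham. In VEH-Sham 5 the sum for reactive astrocytes was 2511. Among all tested genes 11.9% were higher and 11.5% lower. All markers of both lists passed the brightness filter, and their part in the Phgdh and Psat1 differences was not tested.

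Ddit3, the factor CHOP that promotes cell death under lasting ER stress, measured 6.91, 6.69, 6.42, 6.78 and 6.68 in EPO-HI 11 to 15, 7.11, 7.09, 7.12, 7.06 and 6.65 in VEH-HI 6 to 10, and 6.77, 6.78, 6.66, 7.22 and 6.74 in VEH-Sham 1 to 5. In VEH-HI 4 arrays stood close together and VEH-HI 10 lay below them, while in VEH-Sham VEH-Sham 4 alone stood above all VEH-HI arrays. The difference between VEH-HI and VEH-Sham was 0.17 (SE 0.14, limma adjusted p = 0.38), and 0.26 from VEH-Sham 5 alone. A dimmer Ddit3 probe set, below the brightness filter and not tested, differed by 0.591, and by 0.595 from VEH-Sham 5 alone. Ppp1r15a, the eIF2 phosphatase subunit GADD34, differed by 0.17 (SE 0.20) and the pseudokinase gene Trib3 by 0.08 (SE 0.24). Chac1, whose enzyme breaks down glutathione, differed by 0.04 (SE 0.13) and Cth, a cysteine-producing enzyme, by 0.14 (SE 0.14). Sesn2, a stress-induced brake on mTORC1, was the single ATF4 target below 0 on its brightest probe set (-0.27, SE 0.20). A second Sesn2 probe set lay above 0, at 0.06, and at 0.34 from VEH-Sham 5 alone. None of these 5 genes passed. From VEH-Sham 5 alone Ppp1r15a differed by 0.03, Trib3 by -0.13, Chac1 by -0.16, Cth by 0.001 and Sesn2 by -0.05, so Trib3 and Chac1 changed sign.

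Of the 14 genes of ER chaperones and folding enzymes, 2 were higher in VEH-HI than in VEH-Sham, 1 was lower and 11 did not pass, with a median difference of 0.09. Against VEH-Sham 5 alone the median was -0.02, with 6 of 14 above 0, where 6641 of all 13168 tested genes lay above 0. Against VEH-Sham 11.9% of all tested genes were higher and 11.5% lower. Hspa5, the master chaperone BiP and the usual gauge of ER stress, measured 11.35, 11.30, 11.19, 11.03 and 11.18 in EPO-HI 11 to 15, 11.18, 11.29, 11.16, 11.00 and 11.06 in VEH-HI 6 to 10, and 11.04, 11.02, 11.23, 11.03 and 11.18 in VEH-Sham 1 to 5. All 15 values lay between 11.00 and 11.35 and the groups overlapped throughout. The difference between VEH-HI and VEH-Sham was 0.04 (SE 0.08, 95% interval -0.13 to 0.22), and -0.04 from VEH-Sham 5 alone. The other Hspa5 probe sets differed by -0.18 (limma adjusted p = 0.214) and -0.71 (limma adjusted p = 0.00408), and by 0.11 and 0.03 from VEH-Sham 5 alone.

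Dnajb11 had the largest difference among the 34 genes. It encodes a co-chaperone of BiP, and it measured 8.21, 8.11, 8.13, 8.11 and 8.09 in EPO-HI 11 to 15, 8.33, 8.45, 8.10, 8.06 and 8.11 in VEH-HI 6 to 10, and 7.09, 7.54, 7.34, 7.07 and 8.10 in VEH-Sham 1 to 5. VEH-Sham 1 to 4 lay below every other array, while VEH-Sham 5 lay among the VEH-HI and EPO-HI arrays. Dnajb11 in VEH-HI exceeded that in VEH-Sham by 0.78 (SE 0.15, limma adjusted p = 0.00209), or 1.72-fold, and VEH-Sham 5 alone by 0.11. The call stood whichever of the 15 arrays was left out (0.69 to 0.95), and the arrays carry 1 probe set for this gene.

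Manf, a BiP cofactor that is also secreted and protects neurons, measured 10.07, 10.18, 9.80, 9.87 and 9.96 in EPO-HI 11 to 15, 10.09, 10.17, 9.87, 9.98 and 9.85 in VEH-HI 6 to 10, and 9.68, 9.81, 9.55, 9.60 and 9.82 in VEH-Sham 1 to 5. Every VEH-HI array lay above every VEH-Sham array, by little in VEH-HI 8 and VEH-HI 10, while EPO-HI 13 lay below VEH-Sham 2 and VEH-Sham 5. Manf in VEH-HI exceeded that in VEH-Sham by 0.30 (SE 0.09, limma adjusted p = 0.0266), or 1.23-fold, and VEH-Sham 5 alone by 0.17. The call was lost without VEH-HI 6 or 7 or VEH-Sham 1, 3 or 4, with adjusted p up to 0.0732.

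Hsp90b1, the ER chaperone GRP94 with 2 ER stress elements in its promoter, measured 10.90, 10.97, 11.12, 11.04 and 11.00 in EPO-HI 11 to 15, 11.03, 10.90, 11.00, 11.02 and 10.63 in VEH-HI 6 to 10, and 11.29, 11.22, 11.19, 11.18 and 10.96 in VEH-Sham 1 to 5. VEH-Sham 1 to 4 lay above every other array, and VEH-Sham 5 lay inside the VEH-HI range. The difference between VEH-HI and VEH-Sham was -0.26 (SE 0.09, limma adjusted p = 0.0434), or 0.838-fold, and -0.05 from VEH-Sham 5 alone. The call was lost without VEH-HI 7 or 10, any of VEH-Sham 1 to 4, or EPO-HI 12, 14 or 15, with adjusted p up to 0.123. A second Hsp90b1 probe set differed by -0.19 (limma adjusted p = 0.159), and by -0.37 from VEH-Sham 5 alone.

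The other folding genes gave no call on their brightest probe sets. The lectin chaperone genes Calr and Canx differed by -0.13 (SE 0.11) and -0.11 (SE 0.07) between VEH-HI and VEH-Sham, and their other probe sets by -0.52 and -0.31 for Calr and by -0.34 and -0.39 for Canx, with limma adjusted p of 0.00532, 0.0542, 0.0112 and 0.0592. From VEH-Sham 5 alone the brightest probe sets of Calr and Canx differed by -0.01 and -0.15 and the others by -0.17 and -0.19 for Calr and by -0.11 and -0.84 for Canx. The disulfide isomerase genes Pdia3, Pdia4 and Pdia6 differed by -0.05 (SE 0.08), 0.33 (SE 0.14, limma adjusted p = 0.0866) and 0.12 (SE 0.10), and by -0.19, 0.03 and 0.02 from VEH-Sham 5 alone. Pdia4 passed once VEH-Sham 5 was left out. A second, dimmer Pdia3 probe set differed by -0.43 (limma adjusted p = 0.111), and by 0.06 from VEH-Sham 5 alone. For Dnajb9 and Dnajc3, further co-chaperones of BiP, the differences were 0.16 (SE 0.10) and -0.19 (SE 0.09), and 0.04 and -0.17 from VEH-Sham 5 alone. The other Dnajc3 probe sets went both ways, at -0.38 (limma adjusted p = 0.042), -0.05, 0.20 and 0.14. From VEH-Sham 5 alone they differed by -0.09, -0.06, 0.21 and 0.17. Hyou1, a nucleotide exchange factor of BiP, differed by 0.10 (SE 0.15), Creld2, an ER-resident protein with disulfide isomerase activity, by 0.11 (SE 0.12) and Sdf2l1, a component of BiP complexes, by 0.08 (SE 0.17). From VEH-Sham 5 alone these 3 differed by -0.02, -0.06 and 0.28. Of the 8 genes with an ER stress element, Hsp90b1 was the one called on its brightest probe set in VEH-HI against VEH-Sham, as lower. A dimmer probe set each of Hspa5, Calr, Canx and Dnajc3 was also called lower. From VEH-Sham 5 alone those dimmer probe sets differed by 0.03, -0.17, -0.11 and -0.09. Of the 3 with a C/EBP-ATF element Asns was the one called, as higher. Among all tested genes 11.9% were higher and 11.5% lower, and a link between element and call was not tested.

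No gene of ER-associated degradation passed, and all 4 lay below 0 on their brightest probe sets. Under quantile normalization Sel1l passed as lower (limma adjusted p = 0.0453). Of all 13168 tested genes 6232 lay above 0. The other probe set of Herpud1 (0.11), of Edem1 (0.21) and of Syvn1 (0.03), and 1 of the other 4 of Sel1l (0.07), lay above 0, and none of these passed. Herpud1, which organises the degradation complex, differed by -0.26 (SE 0.14), and VEH-Sham 3 held its highest value (8.81, against 7.68 to 8.24 elsewhere). Sel1l, the adaptor of the ubiquitin ligase Syvn1, differed by -0.21 (SE 0.10, limma adjusted p = 0.112), Edem1, which marks glycoproteins for removal, by -0.06 (SE 0.10) and Syvn1 itself by -0.10 (SE 0.12). From VEH-Sham 5 alone the brightest probe sets differed by -0.09, -0.08, 0.10 and -0.06, so Edem1 changed sign. The median of -0.16 was -0.07 against VEH-Sham 5 alone, and turned to 0.09 when the arrays were set to equal medians, a scaling that moved the median of all tested probe sets by 0.244.

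**Figure D3:**
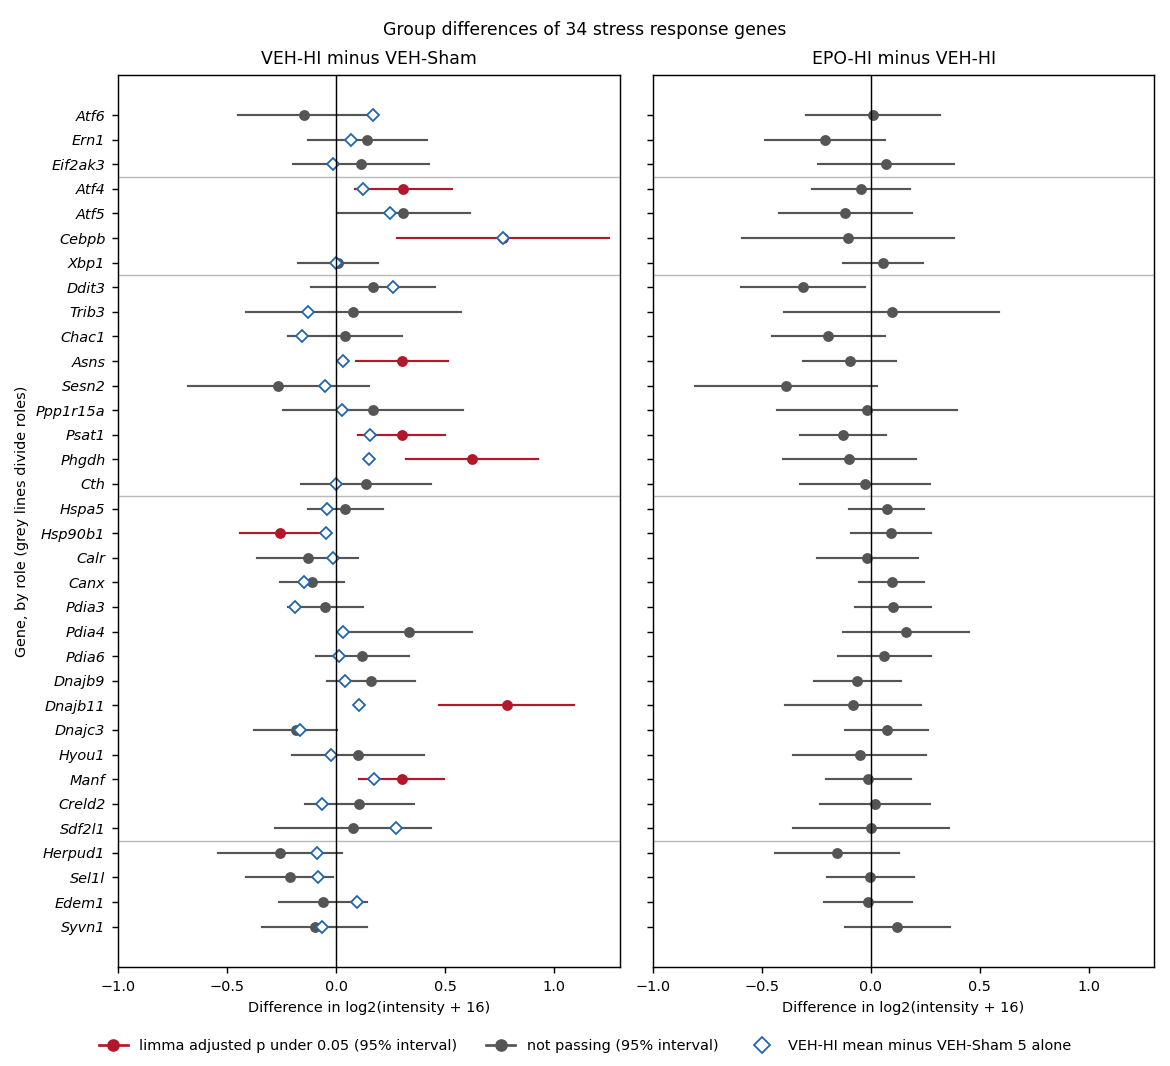
Differences in log2(intensity + 16) for VEH-HI minus VEH-Sham (left) and EPO-HI minus VEH-HI (right), 1 gene per row, with points for the limma estimate (n = 5 arrays per group), bars for the 95% interval, red for a limma adjusted p under 0.05 and open diamonds for the VEH-HI mean minus VEH-Sham 5 alone. The 8 red genes are all on the left, and the diamond of each lies nearer to 0 than its point, except that of Cebpb, which lies on it.

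Side by side, the 9 ATF4 targets had 3 higher and 0 lower in VEH-HI against VEH-Sham and the 14 ER chaperones and folding enzymes 2 higher and 1 lower, where 11.9% of all tested genes were higher and 11.5% lower. Whether the roles differ was not tested. The mean of the 9 ATF4 targets per array, each gene centred on its mean over 15 arrays, ranged from -0.14 to 0.11 in EPO-HI, from 0.01 to 0.28 in VEH-HI and from -0.20 to 0.07 in VEH-Sham, where 0.07 was VEH-Sham 5. The mean of the 14 ER chaperones and folding enzymes ranged from -0.02 to 0.20 in EPO-HI, from -0.07 to 0.17 in VEH-HI and from -0.18 to 0.02 in VEH-Sham, where 0.02 was again VEH-Sham 5. In both roles the ranges overlapped between all 3 groups. With each gene taken as the mean of its probe sets, the median difference was 0.17 for ATF4 targets, 0.06 for chaperones and -0.04 over all genes fitted. In that fit Asns, Psat1, Phgdh, Dnajb11 and Manf were called higher and Hspa5, Hsp90b1, Calr and Canx lower. The share of all genes called in it was not counted. From VEH-Sham 5 alone the dimmer probe sets differed by 0.11 and 0.03 for Hspa5 and by -0.37 for Hsp90b1. Those of Calr differed by -0.17 and -0.19 and those of Canx by -0.11 and -0.84.

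**Figure D4:**
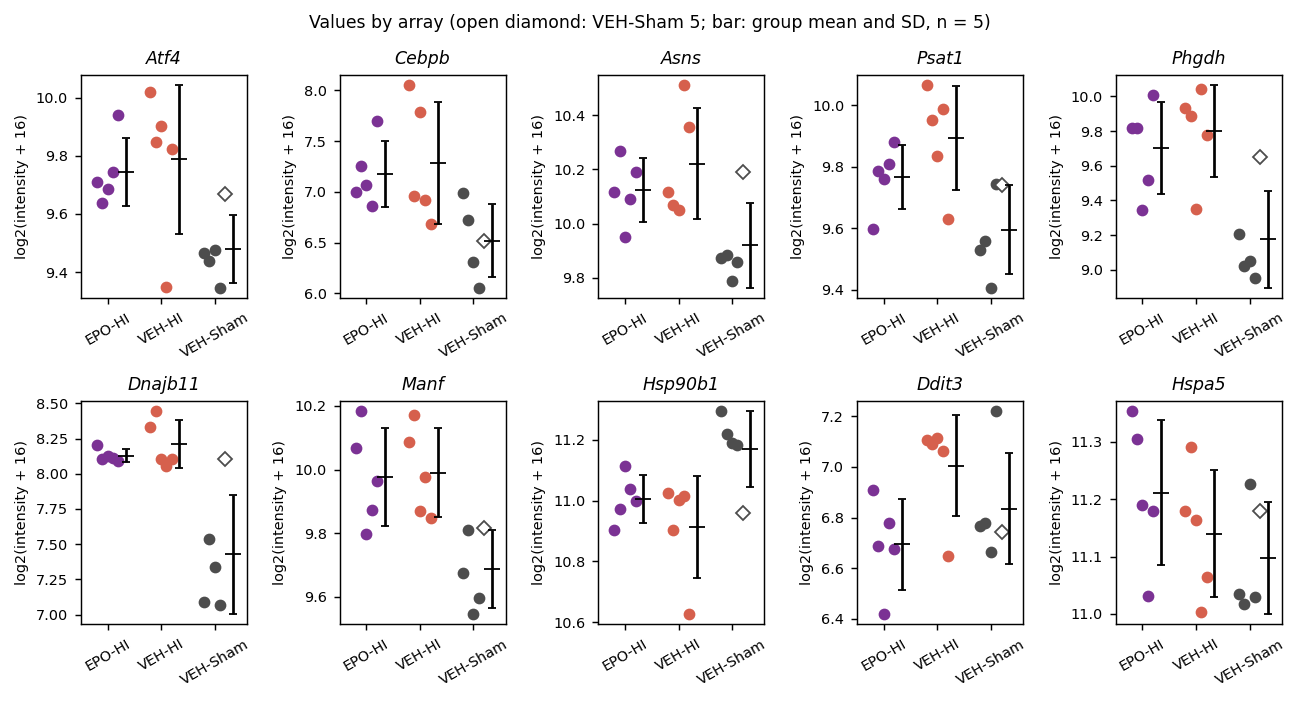
Values of 10 genes in each array as log2(intensity + 16), 1 panel per gene with its own y axis that does not start at 0, EPO-HI in purple, VEH-HI in orange and VEH-Sham in grey, with VEH-Sham 5 as an open diamond and a bar for the group mean and SD (n = 5). For Phgdh, Dnajb11 and Asns the diamond lies level with the injured groups, whereas for Cebpb it lies with the other VEH-Sham arrays.

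Other genes of these pathways were counted list by list, and each count stands against the 11.9% of all tested genes that were higher and the 11.5% that were lower in VEH-HI. Of 29 further genes of the integrated stress response 8 were higher and 1 lower in VEH-HI than in VEH-Sham, with a median difference of 0.19 (0.01 against VEH-Sham 5 alone). Atf3, a stress-induced transcription factor, differed by 1.15 (SE 0.30, limma adjusted p = 0.0117) and by 1.34 from VEH-Sham 5 alone. Vegfa, the vascular growth factor gene, differed by -0.85 (SE 0.12, limma adjusted p = 0.000227) and by -0.58 from VEH-Sham 5 alone. The seryl-tRNA synthetase gene Sars differed by 0.54 (SE 0.14, limma adjusted p = 0.0108) and by -0.03 from VEH-Sham 5, and the serine-using mitochondrial enzyme gene Shmt2 by 0.51 (SE 0.11, limma adjusted p = 0.00471) and by 0.23.

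Against the same shares of 11.9% and 11.5%, 3 of 12 genes of the eIF2 kinases and their machinery were higher and none lower, with a median of 0.11 (0.03 against VEH-Sham 5). They were Eif2b2, a subunit of the eIF2 exchange factor (0.54, SE 0.13), Gcn1, an activator of the kinase GCN2 (0.94, SE 0.30, but -0.24 against VEH-Sham 5), and Nck1, an adaptor that brings a phosphatase to eIF2 (0.35, SE 0.12), with limma adjusted p of 0.00771, 0.0288 and 0.0439. Eif2b2 and Nck1 differed by 0.19 and 0.04 from VEH-Sham 5. Eif2b4 did not pass (0.27, limma adjusted p = 0.061; 0.06 from VEH-Sham 5). Of 29 further ER genes 8 were higher and 1 lower, with a median of 0.07 (0.10 against VEH-Sham 5). Among them were the ER cyclophilin gene Ppib (0.71, limma adjusted p = 0.00119), the translocon genes Sec61b (0.50) and Sec61a1 (0.54), and P4hb, protein disulfide isomerase (0.38), which differed from VEH-Sham 5 by 0.15, 0.30, 0.06 and 0.28. Of 18 further genes of ER-associated degradation 3 were higher and none lower, with a median of 0.20 (0.03 against VEH-Sham 5). These were Vcp, the ATPase that pulls proteins out of the ER (0.35, limma adjusted p = 0.0124), the ubiquitin-conjugating enzyme gene Ube2g2 (0.65, limma adjusted p = 0.0134) and the Vcp cofactor gene Ubxn4 (0.33, limma adjusted p = 0.0195), whereas Ube2j2 did not pass (0.24, limma adjusted p = 0.0509). From VEH-Sham 5 these 4 genes differed by 0.02, 0.32, 0.18 and 0.06. A block for the array set gives these same differences from VEH-Sham 5, which rest on a single sham array.

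EPO-HI was set against VEH-HI to ask what erythropoietin changed after injury, between groups whose arrays share 1 range of medians. None of the 34 genes passed in either direction, and all had a limma adjusted p of 1.0. Among all tested genes 0.0% were higher and 0.0% lower. The smallest limma adjusted p over the 27022 tested probe sets was 0.138, and 1066 probe sets had an unadjusted p under 0.05. Of the 34 genes 1 (Ddit3) had an unadjusted p under 0.05, as did 3.52% of all tested genes. The 95% intervals lay within 0.5 of 0 on the log2 scale for 30 of the 34 genes.

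Ddit3 differed by -0.31 between EPO-HI and VEH-HI (SE 0.14, 95% interval -0.60 to -0.03, limma unadjusted p = 0.0335). Its 5 EPO-HI arrays lay below 4 of the VEH-HI arrays and overlapped with VEH-HI 10. A dimmer Ddit3 probe set that was not tested differed by -0.39. Sesn2 differed by -0.39 (SE 0.20, 95% interval -0.81 to 0.03) and held its lowest value, 5.14, in EPO-HI 12. The median difference of the 9 ATF4 targets was -0.10, with 1 of 9 above 0. That of the 14 ER chaperones and folding enzymes was 0.04, with 9 of 14 above 0. Over all 13168 tested genes the median was -0.01, with 6331 above 0. Hspa5 differed by 0.07 (95% interval -0.10 to 0.25), Atf4 by -0.05 (-0.27 to 0.18), Xbp1 by 0.06 (-0.13 to 0.24) and Cebpb by -0.11 (-0.59 to 0.38). The other Xbp1 probe sets went the other way, at -0.03, -0.20 and -0.10. For the serine synthesis genes the differences were -0.10 for Phgdh (-0.40 to 0.21) and -0.13 for Psat1 (-0.33 to 0.07), and for Dnajb11 and Manf -0.08 (-0.39 to 0.23) and -0.01 (-0.21 to 0.18).

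Between EPO-HI and VEH-Sham, a comparison that shares its VEH-Sham arrays with the first one, 4 of the 34 genes were higher and 2 lower, while 8.86% of all tested genes were higher and 9.46% lower. Dnajb11 differed by 0.70 (SE 0.15, limma adjusted p = 0.00557), Phgdh by 0.53 (SE 0.15, limma adjusted p = 0.0195), Pdia4 by 0.49 (SE 0.14, limma adjusted p = 0.0207) and Manf by 0.29 (SE 0.09, limma adjusted p = 0.0381). From VEH-Sham 5 alone these were 0.03, 0.05, 0.19 and 0.16. Pdia4 was highest in EPO-HI 11 (8.04, against 6.81 to 7.73 elsewhere). Sesn2 was lower, at -0.66 (SE 0.20, limma adjusted p = 0.0293), as was Herpud1, at -0.41 (SE 0.14, limma adjusted p = 0.0407), or -0.44 and -0.24 from VEH-Sham 5 alone. Cebpb, at 0.66 (SE 0.23, limma adjusted p = 0.0537), did not pass and differed by 0.66 from VEH-Sham 5 as well. A block for the array set again gives the differences from VEH-Sham 5 alone. With each gene taken as the mean of its probe sets, Herpud1 (-0.18, limma adjusted p = 0.262), Sesn2 (-0.42, limma adjusted p = 0.0667), Phgdh (0.36, limma adjusted p = 0.0875) and Pdia4 (0.22, limma adjusted p = 0.34) no longer passed. Dnajb11 passed whichever array was left out. The other 5 calls were each lost without 3 to 7 of the 15 arrays in turn: Pdia4 without EPO-HI 11 or VEH-Sham 1 or 4, Phgdh without EPO-HI 15 or VEH-Sham 2, 3 or 4, Manf without EPO-HI 11, 12 or 15 or VEH-Sham 1, 3 or 4, Sesn2 without EPO-HI 12 or 14 or VEH-Sham 2, 3 or 4, and Herpud1 without EPO-HI 11, 13, 14 or 15 or VEH-Sham 1, 3 or 4. Their adjusted p then reached 0.0676, 0.059, 0.102, 0.0804 and 0.122.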

How the data were processed

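Forebrain RNA of 15 mouse samples was measured on Affymetrix Mouse Genome 430 2.0 arrays, in 3 groups of 5. The authors deposited 1 linear intensity for each probe set on each array, and the sources used here do not name their summary software. The trimmed mean (2% off each end) is 150.0 on every array, so the intensities were used as deposited. Of 45101 probe sets, 64 are controls and were left out; a platform table gave 34945 of the rest 1 gene symbol, 932 several and 9160 none. Intensities were converted to log2(intensity + 16). The brightest 60% of probe sets (27022, mean log2 of at least 5.46) entered a linear model of 3 group means in limma 3.58.1 (eBayes with trend, R 4.3.3), with two-sided tests and Benjamini-Hochberg adjustment over all of them. The method was tested on simulated data. A gene is its brightest probe set with 1 symbol. The number of arrays limits the precision. Alternatives were 2 other scalings, 2 filters, pseudocounts of 1 and 64, no trend, the array set as a block, 1 array set alone, each array left out and the mean of a gene's probe sets. Promoters and symbols are RefSeq's (GRCm38.p6). Plots used matplotlib 3.10.9 and Python 3.11.15.

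The 34 genes, the further pathway genes and the marker lists were chosen with earlier results of these data known. Every one of the 34 is named; values in every array are printed for genes that passed in VEH-HI against VEH-Sham with the same direction against VEH-Sham 5, for those with an unadjusted p under 0.05 in EPO-HI against VEH-HI, and for Atf4, Ddit3, Xbp1 and Hspa5. Of each further list up to 4 genes with the smallest p were named, older and current symbols both searched. Single arrays and probe sets were named after their values were seen.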

Additional observations from a re-analysis of the deposited data

Results flagged for a closer look

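In 102 sets of 5 arrays (34 genes in 3 groups), 11 held an array far from the other 4 by Dixon's criterion, which chance alone meets in about 1 set in 20. In EPO-HI, EPO-HI 12 was the highest for Xbp1 (10.98, the others 10.52 to 10.65) and the lowest for Trib3 (5.49, the others 5.83 to 5.93). In VEH-HI, VEH-HI 9 was the lowest for Eif2ak3 (6.81, the others 7.46 to 7.66) and for Atf4 (9.35, the others 9.82 to 10.02), VEH-HI 10 was the lowest for Ddit3 (6.65, the others 7.06 to 7.12) and VEH-HI 6 the highest for Pdia4 (7.73, the others 7.39 to 7.43). In VEH-Sham, VEH-Sham 3 was the lowest for Atf5 (7.08, the others 7.28 to 7.35) and for Ppp1r15a (5.83, the others 6.79 to 6.97), VEH-Sham 1 the lowest for Trib3 (4.60, the others 5.76 to 5.98), VEH-Sham 4 the highest for Ddit3 (7.22, the others 6.66 to 6.78) and VEH-Sham 5 the highest for Asns (10.19, the others 9.79 to 9.88).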

How the results depend on the processing

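The comparison with VEH-Sham depends on the arrays VEH-Sham 1 to 4. No paired analysis was possible because the replicate numbers run from 1 to 15 through the series and no number is shared between groups. For VEH-HI against VEH-Sham the count of higher genes was 4 under quantile normalization and without the trend, and 13 with equal array medians. The count of lower genes was 3 under quantile normalization, 4 with the mean of probe sets, and 0 with equal medians, no filter or no trend. For EPO-HI against VEH-Sham it was 16 higher and 0 lower with equal medians. There 1 gene was lower with a stricter filter or no trend, and 0 with the mean of probe sets. The share of all tested genes called under these settings was not counted. The counts therefore do not set the stress response genes apart from other genes. With equal medians the median difference of all tested probe sets was 0.183 for VEH-HI and 0.222 for EPO-HI against VEH-Sham. A block for the array set leaves VEH-Sham 5 as the lone sham array, whose spread is then assumed to be that of the other groups. Apart from the totals over single genes below, only differences and medians are given for it in comparisons with VEH-Sham. They are those from VEH-Sham 5 alone. For VEH-HI against VEH-Sham the median of the ATF4 targets was 0.30 under quantile normalization, 0.41 with equal medians and 0.027 with the block or VEH-Sham 5 alone, and that of the ER chaperones was 0.33 with equal medians and -0.019 with the block or VEH-Sham 5 alone. Equal medians moved the median of all tested probe sets by 0.244 and quantile normalization by 0.070. With the mean of its probe sets Atf4 was at -0.063 and Hspa5 at -0.28 (limma adjusted p = 0.0317).

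With 1 array left out in turn, VEH-HI against VEH-Sham gave 2 to 8 higher and 0 to 1 lower genes, EPO-HI against VEH-Sham 1 to 7 and 0 to 2, and EPO-HI against VEH-HI 0 to 0 in both directions, as under all other settings run. The fewest higher genes in VEH-HI against VEH-Sham (2) came without VEH-Sham 3, and without VEH-Sham 5 there were 8. The share of all tested genes called with an array left out was not counted either. Medians of the ATF4 targets were 0.14 to 0.22 (VEH-HI against VEH-Sham) and -0.16 to -0.04 (EPO-HI against VEH-HI), and of the ER chaperones 0.03 to 0.12 and 0.01 to 0.08. Over 2532 alternative values of single genes, 2244 kept direction and side of the threshold, 113 lost a call, 35 gained one, 2 reversed (the 2 above) and 138 changed sign without a call. The causes were not tested.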

Other observations

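EPO-HI 15 and VEH-Sham 3 stood apart in the summed intensity of 9 markers of hypothalamus and pituitary, 4893 in EPO-HI 15 (the other EPO-HI arrays 907 to 986) and 2915 in VEH-Sham 3 (the other VEH-Sham arrays 963 to 1105), against 905 to 1193 in VEH-HI. EPO-HI 15 also had the highest neutrophil marker sum of EPO-HI (969, the others 202 to 330). Within EPO-HI it held the highest Atf4, Atf5, Atf6, Cebpb, Chac1, Sesn2, Ppp1r15a, Psat1, Phgdh and Edem1 values. It held the lowest Ern1, Cth, Dnajb11, Pdia6 and Creld2 values of EPO-HI. VEH-Sham 3 held the highest Herpud1 value of all 15 arrays. The part of these markers in those values was not tested. EPO-HI 11 held the highest Hspa5 (11.35), Pdia4 (8.04), Hyou1 (8.71) and Sdf2l1 (7.38) values of all 15 arrays.

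VEH-HI 6 had the highest mean over the 34 genes, each centred on its own mean (0.17, the other arrays -0.11 to 0.11), and also the highest summed intensity of reactive astrocyte markers (10101) and of microglia and macrophage markers (6068) and the lowest of neuron markers (17446, the other arrays 20669 to 26859). Within VEH-HI the array with the lowest mean over the 34 genes was VEH-HI 9 (-0.06). The part of these cell types in the mean was not tested.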
